A study of Mus musculus with 2 samples.

Results

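Laminins, nidogens, perlecan and agrin are the proteins that, with type IV collagen, build the basement membrane, the sheet of matrix around every muscle fibre, blood vessel and nerve. The 10 genes described here were taken by name: the laminin alpha chain genes Lama2, Lama4 and Lama5, the beta chain genes Lamb1 and Lamb2, the gamma chain gene Lamc1, the nidogen genes Nid1 and Nid2, the perlecan gene Hspg2 and the agrin gene Agrn. They are 10 of the 55536 GENCODE M21 genes in the tables, and all 10 were matched. They were measured by total RNA-seq in the gastrocnemius, the large calf muscle, of male mice of the hybrid strain B6CASTF1/J at 10 days of age. There was 1 group of 2 libraries, labelled as biological replicates 1 and 2, each made from 300 ng of RNA with ERCC spike-in RNAs and no further treatment or transgene. The labels give the animals different numbers but 1 donor code, so whether the libraries come from different mice is not settled. The spread between the libraries may therefore be partly or wholly technical.

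A laminin molecule joins 1 alpha, 1 beta and 1 gamma chain, and laminins assemble into a network at the cell surface. Nidogens and perlecan link that network to the one made of type IV collagen, and alpha chains and agrin bind dystroglycan and integrins of the muscle membrane. Mutations of the human LAMA2 gene cause a congenital muscular dystrophy. In rodents the beta chain encoded by Lamb2 is concentrated at the neuromuscular junction, where agrin from the motor nerve clusters acetylcholine receptors.

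The sequences in which the transcripts of Agrn differ are shown first, because the tables of these libraries divided that gene among its forms in different ways. They are GRCm38 (mm10) transcript sequences of GENCODE M21, not sequences read from these mice, and run 5′ to 3′ on the minus strand of chromosome 4. Nerve agrin of rodents carries small inserts, known as y and z, that strengthen heparin binding and receptor clustering. In transcript Agrn-203 these are an exon of 12 bases (y, chr4:156169546-156169557) and neighbouring exons of 24 bases (z, chr4:156168546-156168569) and 33 bases (z, chr4:156167777-156167809), or 4, 8 and 11 codons. The exon is in capitals and 15 bases of the exons on each side are in lower case.
Agrn-203, exon of 12 bases: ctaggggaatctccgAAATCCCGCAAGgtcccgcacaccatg
Agrn-206, junction without it: ctaggggaatctccggtcccgcacaccatg
Agrn-203, exon of 24 bases: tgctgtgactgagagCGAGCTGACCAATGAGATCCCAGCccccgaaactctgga
Agrn-203, exon of 33 bases: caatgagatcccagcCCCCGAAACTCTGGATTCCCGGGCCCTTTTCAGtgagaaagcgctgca
Agrn-206, junction without both: tgctgtgactgagagtgagaaagcgctgca

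The Agrn transcripts also start at different first exons, which gives the protein a different amino terminus. In rodents the long start encodes the secreted agrin that binds laminin, and the shorter start encodes a form held in the membrane. The first 60 coding bases of the long start, in Agrn-206 (chr4:156197361-156197420), and of the short start, in Agrn-202 (chr4:156185639-156185698), are shown with the start codon in capitals.
Agrn-206, long start: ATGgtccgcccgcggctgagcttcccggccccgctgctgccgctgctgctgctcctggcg
Agrn-202, short start: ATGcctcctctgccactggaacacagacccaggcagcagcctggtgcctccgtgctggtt

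The coding parts of the 2 long Hspg2 transcripts, on the plus strand of chromosome 4, differ in 3 short stretches. Hspg2-203 holds 18 bases (chr4:137540195-137540212) and 12 bases (chr4:137548491-137548502) that Hspg2-201 lacks, and Hspg2-201 holds 6 bases (chr4:137549532-137549537) that Hspg2-203 lacks. The stretch is in capitals, and reads over these places are what tells the transcripts apart within the coding part.
Hspg2-203, 18 bases: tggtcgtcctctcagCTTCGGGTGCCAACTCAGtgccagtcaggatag
Hspg2-203, 12 bases: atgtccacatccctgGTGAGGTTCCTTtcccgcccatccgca
Hspg2-201, 6 bases: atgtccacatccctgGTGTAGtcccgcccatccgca

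The libraries held 38874862 and 38160786 expected counts in replicates 1 and 2, so that 3 counts on a gene with 1000 effective bases equal 0.0925 and 0.0924 TPM. Markers of muscle fibres (Acta1, Ckm, Myh4, Mylpf and Tnnt3) lay between 7723 and 24109 TPM, so the libraries carry the defining genes of the labelled tissue. Levels are given as TPM (transcripts per 1000000), a share scaled by length that the gene tables supply, with the SD of 2 libraries. With 2 libraries and no second condition no gene was tested, since an exact two-sided sign-flip test cannot give a p below 0.5. In whole tissue, fewer cells of a type and less RNA per cell cannot be told apart.

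All 10 genes had 9.57 TPM or more in both libraries. Lamc1 had the highest level and Lama5 the lowest, a span that runs from the 98.0th to the 76.7th percentile of 22015 protein-coding genes. Together the 10 genes summed to 636 and 615 TPM in replicates 1 and 2, or 0.145% and 0.139% of the protein-coding TPM. They took 0.457% and 0.449% of the protein-coding counts, which also grow with transcript length. In the order of mean TPM, Lamc1 was followed by Hspg2, Nid1, Lama2, Lamb2, Lamb1, Lama4, Nid2, Agrn and Lama5. Lama2 and Lamb2 were the only neighbours in that order whose ranges over the 2 libraries overlapped, and the range of Lama2 also overlapped that of Lamb1. By expected count, which also grows with transcript length, Hspg2 came first, with 42193 and 39522 counts.

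**Figure D1:**
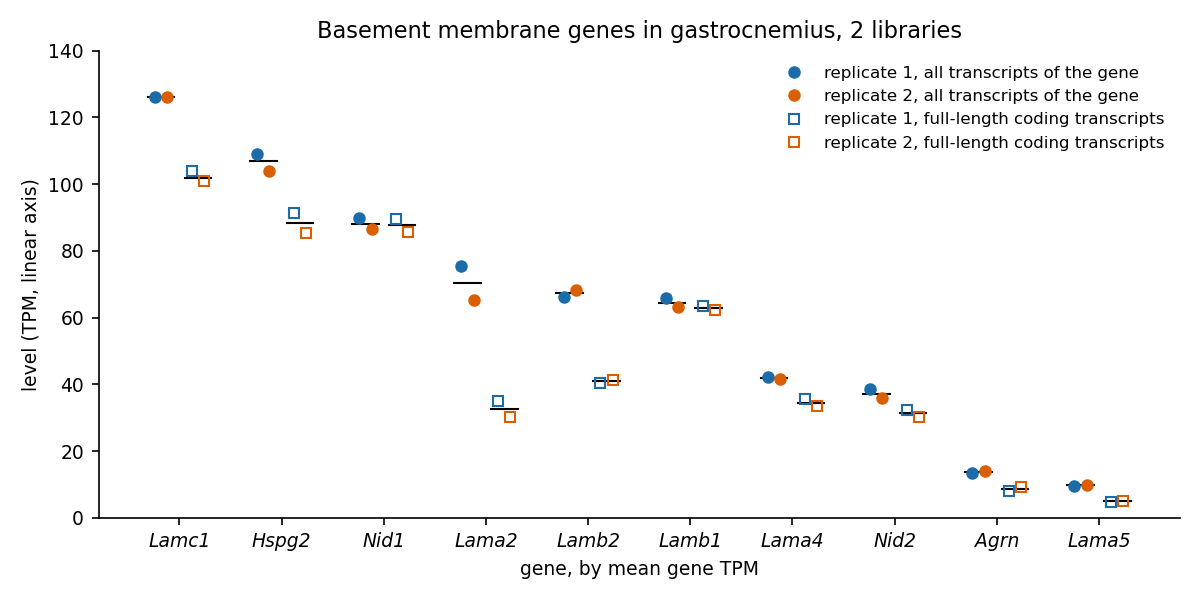
Level of each gene in TPM on a linear axis, with genes in the order of their mean. Filled circles sum all transcripts of a gene, open squares sum its full-length coding transcripts, blue is replicate 1, orange is replicate 2 and lines are means; Lama2, at 75.5 and 65.2 TPM over all transcripts, sits at 35.1 and 30.3 TPM over its full-length one.

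Among the alpha chains, Lama2 was the most abundant by gene level. Lama2 (chromosome 10, 26980036 to 27619758, minus strand), which encodes the main alpha chain of the mature muscle fibre membrane, had 75.5 and 65.2 TPM (70.3 ± 7.33). Lama4 (chromosome 10, 38965515 to 39110188, plus strand), a chain typical of capillaries and fibroblasts, had 42.1 and 41.5 TPM (41.8 ± 0.445). Lama5 (chromosome 2, 180176373 to 180225859, minus strand), found in arterial and synaptic basement membranes, had 9.57 and 9.85 TPM (9.71 ± 0.198). The 3 ranges did not overlap. Lama2 held 59.0% and 55.5% of the summed alpha chain TPM, Lama4 held 32.9% and 35.3%, and Lama5 held 7.47% and 8.39%.

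Much of the Lama2 level lay on short annotated transcripts. The full-length coding transcript Lama2-201 took 80% of the gene's counts but 46.5% of its TPM, as means of the 2 libraries. Lama2-204, a retained-intron model of 1687 bases, held 18.8% and 19% of the TPM from 5.41% and 5.43% of the counts. Lama2-208, a coding model of 3383 bases at the 3′ part of the gene, held 17.4% and 18.3%, and Lama2-206, a retained-intron model of 643 bases, held 13.6% and 11.7%. The second deposited table gave Lama2-201 67.2% and 65.7% of the gene, and moved much of the rest to Lama2-202, another retained-intron model, at 17.2% and 18%.

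Lama4 was less divided. Lama4-201, its full-length transcript, held 84.6% and 80.5% of the TPM, and Lama4-207, a retained-intron model of 511 bases, held 12.3% and 17%. In Lama5, the full-length transcript Lama5-201 held 51% and 50% of the TPM but 95.9% and 95.4% of the counts. The rest of Lama5 was put on processed transcripts, of which Lama5-203 held 23.4% and 33.6% and Lama5-204 held 20.4% and 12.5%.

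Over full-length coding transcripts, meaning coding transcripts with at least 80% of the length of the gene's longest, Lama2 and Lama4 could not be ordered. Lama2 had 35.1 and 30.3 TPM on that scale and Lama4 had 35.6 and 33.4 TPM, and their ranges overlapped. Lama2 then held 46.0% and 43.8% of the alpha chain TPM and Lama4 held 46.7% and 48.2%. Lama5 was far below both in every estimate, at 4.88 and 4.93 TPM over its full-length transcript. In the second table Lama2 again exceeded Lama4, at 77.2 and 67.1 TPM for Lama2 and 56.3 and 57.9 TPM for Lama4.

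The beta chain genes were near each other by gene level. Lamb1 (chromosome 12, 31265234 to 31329644, plus strand), which encodes the beta chain of most basement membranes, had 65.8 and 63.1 TPM (64.4 ± 1.93). Lamb2 (chromosome 9, 108479736 to 108490530, plus strand), which encodes the synaptic and vascular beta chain, had 66.3 and 68.2 TPM (67.3 ± 1.29). Their ranges did not overlap, but the log2 ratio of Lamb1 over Lamb2 was only -0.01 in replicate 1 and -0.11 in replicate 2, or 0.958-fold as a mean. Lamb1 held 49.6% and 47.9% of the summed beta chain TPM and Lamb2 held 50% and 51.7%.

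This balance did not hold across estimates. Of the Lamb2 TPM, 29.6% and 29.1% lay on Lamb2-206, a coding model of 345 bases that drew 156 and 158 counts and was listed at 0 in the second table. Lamb2-201, the full-length transcript, held 61.1% and 60.5% of the TPM but 96.8% of the counts in each library. Lamb1-201 held 95.8% and 98.8% of the TPM of Lamb1. Over full-length coding transcripts Lamb1 had 63.4 and 62.3 TPM and Lamb2 had 40.5 and 41.3 TPM, a ratio of 1.54-fold. In the second table Lamb1 had 90.6 and 85.8 TPM and Lamb2 had 61.6 and 58.8 TPM, a ratio of 1.46-fold.

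**Figure D2:**
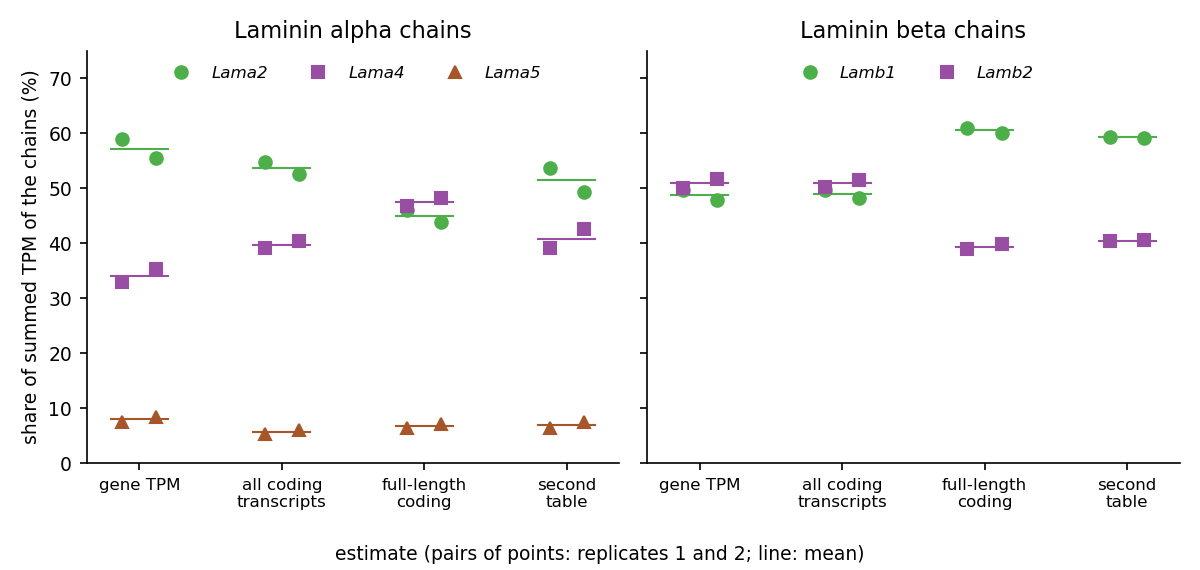
Share of the summed TPM of all alpha chains (left) and all beta chains (right), in percent, held by each gene under 4 estimates; the points of a pair are replicates 1 and 2 and lines are means. Lama2 and Lama4 meet where full-length coding transcripts alone are summed, and Lamb1 and Lamb2 part both there and in the second table.

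Lamc1 had the highest level of the 10 genes. Lamc1 (chromosome 1, 153218922 to 153332786, minus strand), which encodes the gamma chain shared by most laminins, had 126 TPM in both libraries (SD 0.276) and 25988 and 25427 counts. Lamc1-201 held 82.5% and 79.7% of the gene's TPM and 97.6% and 96.7% of its counts. Lamc1-205, a model of 762 bases marked for nonsense-mediated decay, held 11.2% and 9.38% of the TPM.

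Summed over each class, alpha chains came to 1.02 and 0.929 times the Lamc1 level, and beta chains to 1.05 and 1.04 times. Over full-length coding transcripts the alpha chains came to 0.735 and 0.688 times Lamc1, and the beta chains to 1.00 and 1.03 times. Summing full-length coding transcripts alone thus lowered the mean alpha chain ratio to 0.711, against 0.973 over gene TPM, and the beta chain ratio to 1.02, against 1.05.

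Other laminin chains outside the 10 genes were low. Lama1 had 0.07 and 0.05 TPM in replicates 1 and 2, and Lamc3 had 0.11 and 0.13 TPM. Lama3 had 0.77 and 0.87 TPM and Lamb3 had 0.52 and 0.54 TPM, and both encode chains of the laminin of epidermis. The epidermal keratin Krt5 had 2 and 0 counts and Krt14 had 1 and 0 counts in these libraries, while Krt10, the third epidermal marker listed, had 50 and 53 counts. Ntn4, a netrin related to laminin short arms that was listed with them, had 4.40 and 5.25 TPM.

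Of the nidogens, which bridge laminin gamma chains and type IV collagen, Nid1 was the more abundant. Nid1 (chromosome 13, 13437551 to 13512269, plus strand) had 89.8 and 86.6 TPM (88.2 ± 2.23), and Nid1-201 held 99.7% and 99.1% of it. Nid2 (chromosome 14, 19751265 to 19811787, plus strand) had 38.6 and 35.8 TPM (37.2 ± 1.97). The log2 ratio of Nid1 over Nid2 was 1.22 and 1.27 (1.24 ± 0.04), or 2.37-fold, and the ranges lay far apart.

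Nid2-201 held 83.6% and 84.1% of the Nid2 TPM, and Nid2-202, a retained-intron model of 543 bases, held 15.3% and 15.6% from 1.66% and 1.69% of the counts. Over full-length coding transcripts the ratio of Nid1 over Nid2 was 2.79-fold. Nid2 overlaps the opposite-strand gene Rtraf, which had 1580 and 1440 counts. No source used here states a strand setting for the counting, so the level of Nid2 is uncertain by the reads of that overlap. No other gene of the 10 overlapped a gene with more than 49 counts.

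Hspg2 had the higher level of the 2 proteoglycan genes among the 10. Hspg2 (chromosome 4, 137468769 to 137570630, plus strand), which encodes a large heparan sulfate proteoglycan of nearly all basement membranes, had 109 and 104 TPM (107 ± 3.18). Its 2 full-length transcripts shared the gene almost evenly: Hspg2-203 held 46.9% and 43.4% of the TPM and Hspg2-201 held 37.2% and 38.6%. By counts the shares were 55.2% and 52.3% for Hspg2-203 and 43.8% and 46.6% for Hspg2-201. The second table gave Hspg2-203 53.2% and 46.5%, and Hspg2-201 46.1% and 46.5%. Each table thus assigned reads to the forms with and without the 18-base and 12-base stretches printed above, in both libraries. Hspg2-202, a processed transcript of 820 bases, held 15.9% and 18% of the TPM from 0.956% and 1.11% of the counts.

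Agrin was much lower. Agrn (chromosome 4, 156165290 to 156197488, minus strand), which encodes the proteoglycan that organises the neuromuscular junction, had 13.3 and 14.0 TPM (13.7 ± 0.445). The log2 ratio of Hspg2 over Agrn was 3.02 and 2.89 (2.95 ± 0.09), or 7.75-fold. The receptors through which nerve agrin acts were present, with Lrp4 at 8.88 and 7.59 TPM and the kinase Musk at 13.3 and 11.5 TPM.

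Most Agrn reads were put on the form with the long start and without the small exons. That form, Agrn-206, held 58.0% and 62.8% of the TPM and 76.1% and 79.9% of the counts in the first table, and 51.6% and 53.0% of the TPM in the second. Agrn-203, the coding transcript with all 3 small exons, held 2.18% and 0.54% of the TPM, from 67.6 and 17.6 counts. The second table gave it 2.27% and 0.0109%. Both tables thus placed Agrn-203 low, and lower in replicate 2. They are made from the same reads, so the second is not a separate measurement of that difference.

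The bases of the small exons also lie in models that do not encode protein. Agrn-205, a retained-intron model of 2071 bases that covers the bases of the 24-base exon, took 33.7% and 31.0% of the TPM in the first table. In the second table it took 8.75% and 1.66e-06%. Whether it holds them as a separate exon or within retained sequence was not checked. All 3 transcripts that cover those 24 bases took 38.7% and 33.5% of the TPM in the first table, and 15.1% and 2.54% in the second. The share of Agrn RNA that carries this exon is therefore not settled by these tables, which count transcripts and not single junctions.

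The tables also differed over the start of Agrn. The transcripts from the short start without small exons, Agrn-201 and Agrn-202, held 3.30% and 3.65% of the TPM in the first table. In the second table they held 33.3% and 44.5%, nearly all of it on Agrn-202. Agrn as a whole was close between tables, at 14.4 and 14.5 TPM in the second.

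**Figure D3:**
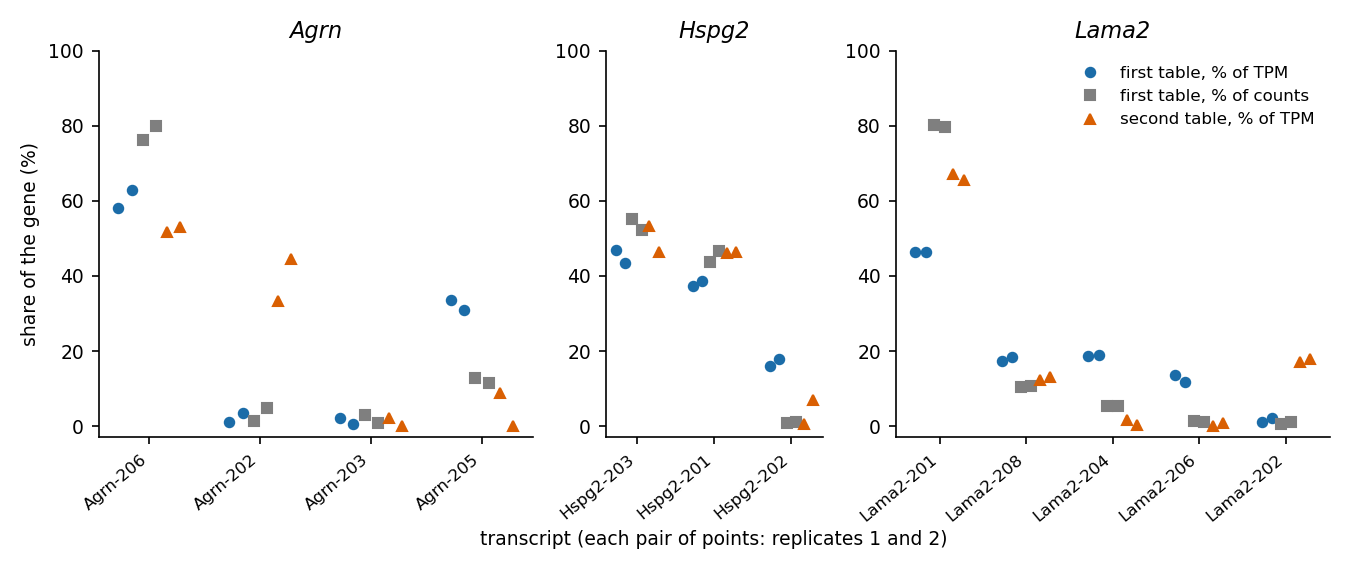
Share of each gene held by its annotated transcripts, in percent, for Agrn, Hspg2 and Lama2. Blue circles are the share of TPM and grey squares the share of expected counts in the first table, orange triangles are the share of TPM in the second table, and the points of a pair are replicates 1 and 2; Agrn-202 lies near 0 in the first table and at 33.3% and 44.5% in the second.

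Over the 10 genes, the leading transcript by counts held a median of 71% of the TPM and 97% of the counts. For 8928 protein-coding genes with 3 or more transcripts the medians were 63.1% and 78.9%. These genes were not matched to the 10 for transcript length or number, so the medians are not a like comparison. Nid1 and Lamb1 kept 99.4% and 97.3% of their TPM on it. Hspg2, Lama2 and Lama5 kept 45.1%, 46.5% and 50.5%, the smallest shares of the 10.

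The 2 deposited tables differed by a general shift. Over the 10954 protein-coding genes that averaged at least 100 expected counts, the second table was higher than the first by a median of 0.54 on the log2 scale, with a pseudocount of 0.1 TPM. The median for the 10 genes was 0.25. None of the 10 differed by more than 0.5 between the tables, while 59.5% of those protein-coding genes did. The leading transcripts of the 10 genes have 4876 bases or more, and the 2 sets were not matched for length. Measured from the median of 0.54, the difference was -0.70 for Lamb2, -0.56 for Lama5 and -0.50 for Lama2. These 3 of the 10 passed 0.5 in that measure, which 9.24% of the protein-coding genes did.

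The 10 genes differed little between the libraries. After TMM scaling of the counts, the log2 ratio of replicate 2 over replicate 1 ran from -0.13 to 0.18 over the 10 genes, and 6 were higher and 4 lower in replicate 2. None of the 10 passed a log2 ratio of 0.32 in either direction, a size that 9.69% of the 10954 protein-coding genes passed. For a set of only 10 genes, none is near that share. The median size of the ratio, without its sign, was 0.04 for the 10 genes and 0.11 for the protein-coding genes. The 2 sets are unlike in depth: those genes averaged at least 100 counts, while each of the 10 had 1862 or more per library. Counting error is larger at low counts, so the 2 medians are not a like comparison.

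Agrn had the largest ratio, 0.18 with an exact binomial interval of 0.10 to 0.27, which covers counting error only. Lamb2 followed at 0.10, with an interval of 0.05 to 0.14. Lama2 had the lowest ratio, -0.13, with an interval of -0.17 to -0.10. Those 3 signs held under all 9 ways of scaling or counting, as did that of Lama5 above 0 and those of Lama4 and Nid2 below 0. The signs of Lamb1, Lamc1, Nid1 and Hspg2 varied with the scaling.

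Markers of several cell types also differed between the libraries, in log2 ratios of scaled counts. Of the 5 muscle fibre markers named above 4 stood higher in replicate 2, at a median of 0.13 and sums of 72711 and 74139 TPM in replicates 1 and 2. All 5 endothelial markers (Pecam1, Cdh5, Kdr, Flt1 and Tie1) stood higher in replicate 2. Their median log2 ratio was 0.21 and their levels summed to 145 and 157 TPM in replicates 1 and 2. All 5 mural cell markers (Rgs5, Pdgfrb, Acta2, Myh11 and Cspg4) were higher too, with a median of 0.24 and sums of 347 and 400 TPM. The ratio of Pdgfrb was 0.04 with an interval of -0.03 to 0.11, and its TPM was lower in replicate 2, at 17.4 and 17 TPM in replicates 1 and 2. Of 5 fibroblast markers (Pdgfra, Dcn, Col1a1, Col3a1 and Ly6a) 4 were lower in replicate 2, with a median of -0.07 and sums of 3638 and 3265 TPM. Of 5 neuromuscular junction markers (Chrna1, Chrne, Musk, Colq and Ache) 3 were lower, with a median of -0.15 and sums of 70.2 and 63.3 TPM. Of the 2 adipocyte markers that averaged at least 100 counts, Plin1 was lower, at -0.86 with an interval of -1.12 to -0.61. The ratio of Adipoq was -0.02 with an interval of -0.30 to 0.26, and its TPM was 6.42 and 6.51 in replicates 1 and 2. Of 4 satellite cell markers 2 were higher and 2 lower. The median over the 10954 protein-coding genes was 0.02, with 55.9% higher in replicate 2. The part of these cell types in the ratios of Agrn, Lamb2 and Lama2 was not tested.

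**Figure D4:**
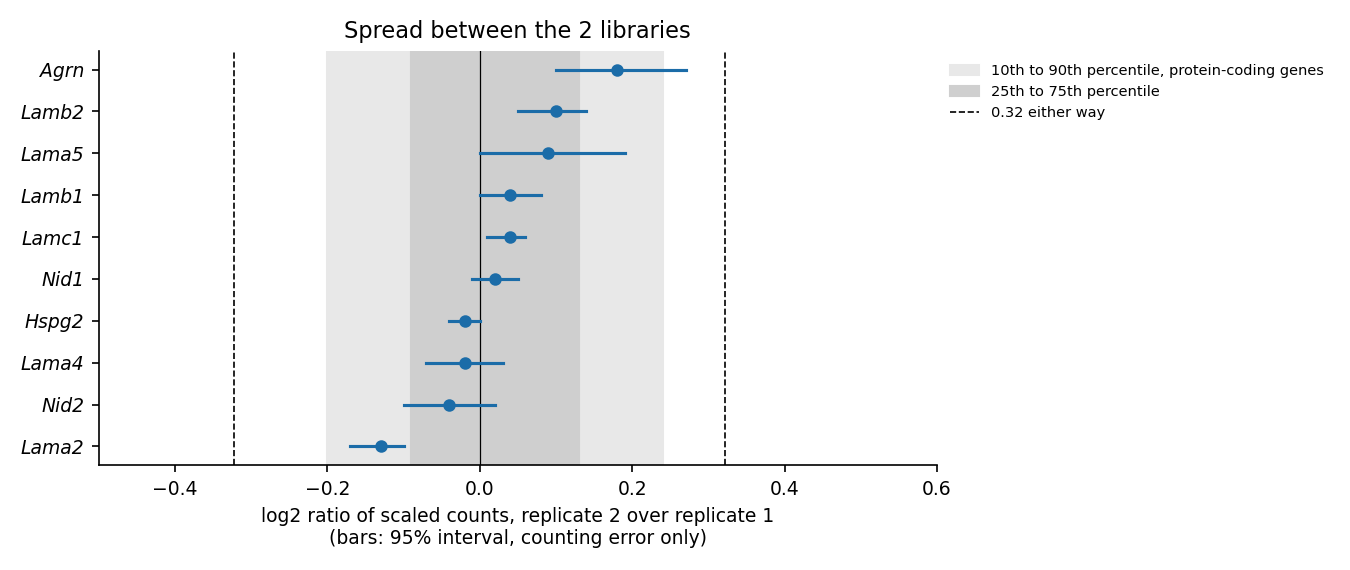
Log2 ratio of scaled counts, replicate 2 over replicate 1, for each gene, with 95% intervals that cover counting error. Grey bands span the 25th to 75th and 10th to 90th percentiles of 10954 protein-coding genes (-0.09 to 0.13 and -0.20 to 0.24), and every point lies inside the dashed lines at 0.32 either way.

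Type IV collagen forms the other network of the basement membrane, and its genes Col4a1 and Col4a2 were the highest of the 8 basement membrane collagens listed by mean level. Col4a1 had 315 and 348 TPM and Col4a2, with which it forms the common trimer, had 145 and 155 TPM. Together they held 99.2% and 99.3% of the TPM of the 6 type IV chains. Col4a1 was 2.50 and 2.75 times as high as Lamc1 in replicates 1 and 2. That ratio was larger in the second table, where Col4a1 had 548 and 592 TPM and Lamc1 had 161 and 144 TPM. The log2 ratio of Col4a1 between the libraries, 0.23, was above the 0.04 of Lamc1. Col15a1, a collagen of the muscle and capillary surface, had 141 and 148 TPM. Of 8 basement membrane collagens 5 reached 1 TPM in both libraries, and the lowest were Col4a6 at 0.09 and 0.12 TPM and Col4a3 at 0.81 and 0.48 TPM.

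Of 15 other basement membrane proteins 14 reached 1 TPM in both libraries. Sparc, which binds type IV collagen, was far above the rest at 901 and 887 TPM, a level above that of each of the 10 genes. Ltbp4, a binding protein of latent TGF-beta, had 55.6 and 62.1 TPM, and the thrombospondin Thbs4 had 54.8 and 57.2 TPM. The lowest were Smoc1, at 1.07 and 0.82 TPM, and Frem1, at 1.72 and 1.17 TPM. In the second table Smoc1 reached 1 TPM in both libraries too, at 1.45 and 1.16 TPM.

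All 16 genes listed as receptors or their partners reached 1 TPM in both libraries. Itgb1, the beta subunit of most laminin-binding integrins, had 138 and 136 TPM. Dag1, which encodes dystroglycan, had 122 and 119 TPM, and the glypican Gpc1 had 120 and 116 TPM, so all 3 were near the level of Lamc1. In the second table Lamc1 had 161 and 144 TPM and Gpc1 had 170 and 163 TPM. Itgb1 and Dag1 stood further above Lamc1 there, at 194 and 196 TPM and at 204 and 217 TPM. The lowest were Itga3, at 1.43 and 1.47 TPM, and Itgb4, at 1.97 and 2.13 TPM, integrin subunits best known from epithelia. All 9 matrix-processing genes reached 1 TPM too. Serpinh1, the collagen chaperone, had 124 and 128 TPM, and the metalloproteinases Mmp2 and Mmp14 had 85.8 and 84.1 TPM and 48.9 and 48.1 TPM. P4ha2 at 8.96 and 9.08 TPM and Plod3 at 9.07 and 10.8 TPM, enzymes that hydroxylate collagen, were the lowest.

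**Figure D5:**
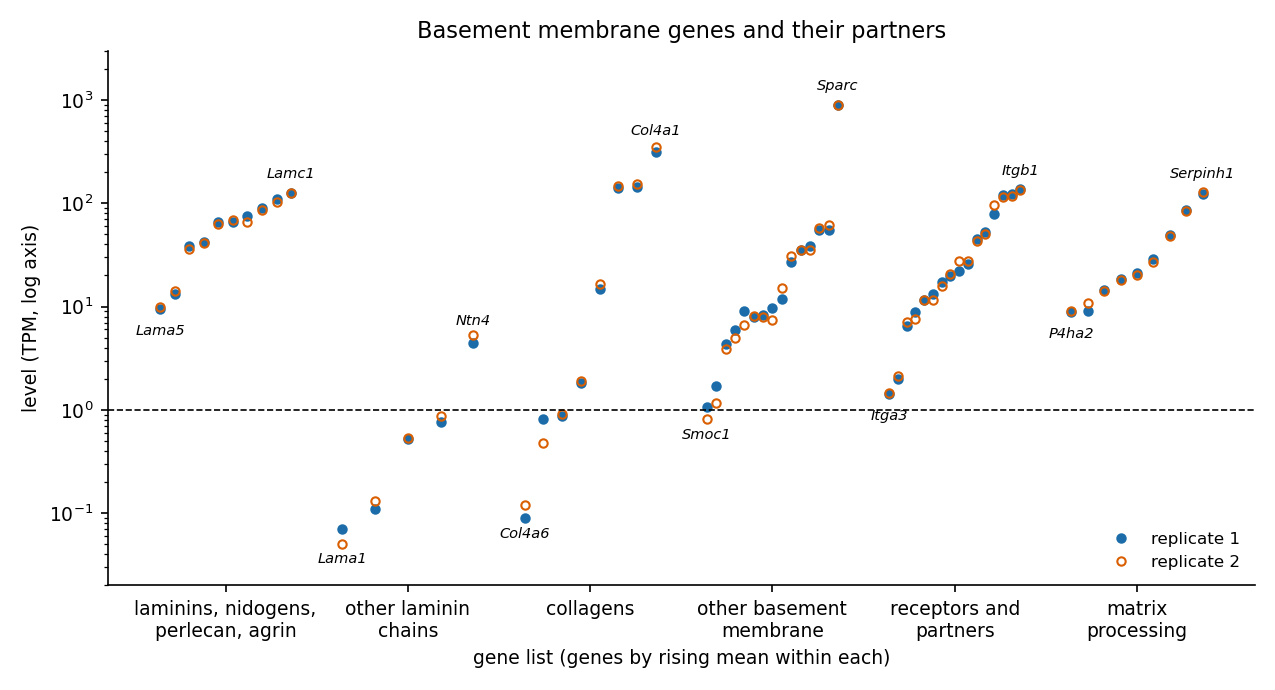
Level in TPM on a log axis of the 10 genes (left) and of 5 lists of partner genes, by rising mean within each list, with the lowest and highest gene of each list named. Blue is replicate 1, open orange circles are replicate 2 and the dashed line is 1 TPM; among the other laminin chains 1 of 5 genes, Ntn4, lies above it in both libraries.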

How the data were processed

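Per the accompanying notes and the file headers, the authors deposited gene and transcript tables with expected counts, posterior mean counts, TPM, each transcript's percent of its gene and effective lengths (an adjusted length, handled as a score), with RSEM's column names, made from alignments to the mm10 transcriptome of GENCODE M21. The second deposited transcript table, laid out as kallisto does, gives estimated counts and TPM. Effective lengths imply fragments of 100 bases in the first tables and 347 and 355 in the second, which affects short transcripts most. No source used here names the programs or their versions.

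Expected counts were rounded and scaled with TMM in edgeR 4.0.16 (R 4.3.3) over endogenous genes averaging at least 10 counts, with a prior count of 0.5. Binomial intervals of 95% cover counting error only, since reads are not independent molecules. TPM ratios used a pseudocount of 0.1 TPM. The calculation of ratios was checked on simulated counts with known changes. Other steps were run with scipy 1.17.1, pandas 2.3.3 and numpy 2.4.6 under Python 3.11.15.

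Genes, lists and rules were chosen with earlier results of these data known. Named are all 10 genes, their leading transcripts and others with a mean of 10% or more of the gene, other laminin chains, and the 3 highest and 2 lowest of each partner list. Agrn-201, Agrn-202, Agrn-203, Lama2-202, Lrp4, Musk and the keratins Krt5, Krt10 and Krt14 were named with their values in view. The alternatives tried were the second table, posterior means, coding transcripts, other scalings (TPM without 7SL genes and spike-ins, DESeq2 1.42.0 size factors, library totals, spike-ins), priors, pseudocounts, thresholds and leaving out each replicate. Sums over full-length coding transcripts and differences taken from the median were added after seeing the data. A few genes of the lists are not reported here.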

Additional observations from a re-analysis of the deposited data

How the results depend on the processing

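Lama2 held 57.2% of the alpha chain TPM, against 51.5% in the second table, 53.6% over coding transcripts and 44.9% over full-length ones. Lamb1 held 48.7% of the beta chain TPM, against 59.3% in the second table and 60.5% over full-length transcripts. The alpha chain sum over Lamc1 was 0.973, against 0.774 over coding and 0.711 over full-length transcripts. For the beta chain sum the value of 1.05 became 0.978 in the second table, 1.07 with posterior means, 1.14 over coding and 1.02 over full-length transcripts. The log2 ratio of Nid1 over Nid2, 1.24, became 1.34 in the second table and 1.48 over coding and over full-length transcripts. That of Hspg2 over Agrn, 2.95, became 3.10, 3.30 and 3.32 under these alternatives. The values over coding transcripts leave out models of any length that are not marked as coding. Those over full-length transcripts also leave out the shorter coding models. For the second table the cause of the change was not tested.

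The median log2 ratio between replicates over the 10 genes, 0.027, turned to -0.016 with library totals, -0.004 with spike-in totals and -0.037 as a ratio of deposited TPM, so no direction can be read from it. The count of genes differing by over 0.5 log2 between tables, 0, became 1 (Agrn, at 0.57) over coding transcripts and 3 when measured from the median. Of the other values under alternatives, 39 for the comparisons and 116 for single genes stayed within the spread, and 54 for single genes moved beyond it. Among the 54 were the mean TPM of all 10 genes when rescaled without 7SL genes and spike-ins. That rescaling raised Lamc1 from 126 to 183 TPM, Lama2 from 70.3 to 102 TPM and Lama5 from 9.71 to 14.1 TPM. Leaving out either replicate moved none of the comparisons beyond the spread, which follows from the spread being that of the same 2 libraries. No paired analysis was possible because there is 1 group. Depth limits the low chains: Lama1 and Lamc3 rest on 15 to 25 counts per library.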

Other observations

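Among the other basement membrane proteins, genes of the Fraser complex stood lower in replicate 2, by values chosen after they were seen. Fras1, Frem1 and Frem2 encode proteins that form this complex at the base of epithelia. Fras1 had 9.72 and 7.44 TPM in replicates 1 and 2, with a log2 ratio of scaled counts of -0.45 (interval -0.52 to -0.39). Frem1 had a ratio of -0.53 (interval -0.76 to -0.31), and Frem2, at 5.94 and 5 TPM, had a ratio of -0.28 (interval -0.37 to -0.19). Of the 15 genes in that list 7 were higher and 8 lower in replicate 2, with 1 (Tinagl1, a matricellular protein, at 0.54) and 2 (Fras1 and Frem1) past 0.32. Over the 10954 protein-coding genes 55.9% were higher in replicate 2 and 9.69% passed 0.32 in either direction. The intervals cover counting error only, and none of these ratios was tested.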
